A study of Mus musculus with 42 samples.

Results

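Mouse embryonic stem cells that carry GFP at the Gsc locus and RedStar at the Hhex locus (the dual reporter line B6) were differentiated towards anterior definitive endoderm (ADE) and sorted on day 6 into 2 populations. Both were Gsc high and untreated: d6 G+H- cells were negative for the Hhex reporter and d6 G+H+ cells were positive for it. Each population was measured on 3 one-colour Agilent arrays, so the comparison rests on 6 of the 42 arrays of the series, chosen by their sample labels. The series design text describes the replicates as separate experiments, and all of them come from 1 reporter line. Other untreated groups used for reference are ESCs, d2 cells, d3 G- and G+, d4 G- and G+, and d5 G-, Glow and Ghigh. Also used are d6 cultures given DMSO (Control) or the EZH2 inhibitor EPZ6438 during differentiation (ADE_EPZ), for which the labels name no sort. The d6 cultures given EPZ6438 before differentiation (ES_EPZ) entered the normalisation and the fit only.

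Goosecoid (Gsc) is a homeobox factor of the anterior primitive streak and of the mesendoderm that leaves it. Hhex is a homeobox factor of the anterior endoderm, from which foregut derivatives such as liver and thyroid form, and Cer1 encodes a secreted Nodal, BMP and Wnt antagonist made by the same tissue. As endoderm forms from the streak, cells lose mesenchymal features and take on epithelial ones. The comparison asks how the RNA of cells on either side of the Hhex gate differed at the end of the differentiation.

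The 6 arrays had 28590 to 33971 probes well above background. They lay on 5 slides, of which 1 held both populations, namely replicate 1 of d6 G+H- and replicate 2 of d6 G+H+. Levels below are log2 intensities after background correction and quantile normalisation, and differences are d6 G+H+ minus d6 G+H- on that scale, with the standard error (SE) of a limma fit to all 42 arrays. In sorted bulk RNA, fewer cells of a type and less RNA per cell cannot be told apart.

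The genes of the gate itself did not pass the test. Hhex was at 12.40, 12.57 and 11.73 in d6 G+H- replicates 1 to 3 and at 12.60, 12.94 and 12.60 in d6 G+H+. The lowest Hhex-positive array was just above the highest Hhex-negative array, and the difference of 0.48 (SE 0.40, n = 3 arrays per group) had a limma adjusted p of 1. In d5 Ghigh cells Hhex was at 10.55 ± 1.13 (SD, n = 3) and in ESCs at 7.56 ± 0.62. All 6 d6 arrays were above both of these means. By qRT-PCR, the study detected Hhex mRNA in both d6 populations, with Hhex and Cer1 higher in the Hhex-positive one. The study proposes that some cells may express Hhex from the allele without the reporter, which was not tested here.

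Cer1 was at 15.90, 15.57 and 14.81 in d6 G+H- and at 16.22, 15.96 and 15.86 in d6 G+H+, a difference of 0.59 (SE 0.86, limma adjusted p of 1). It was higher in d6 G+H+ in each same-numbered pair, and the groups overlapped. Gsc, high in both gates by design, was at 13.40, 13.80 and 13.61 against 13.56, 13.20 and 13.48, a difference of -0.19 (SE 0.47, limma adjusted p of 1). Pou5f1, a pluripotency factor, was at 7.09, 8.48 and 8.64 against 7.18, 7.85 and 8.22, compared with 13.66 in ESCs. Its difference was -0.32 (SE 0.63, limma adjusted p of 1). The endoderm factors Foxa2 and Sox17 differed by -0.13 (SE 0.63) and -0.05 (SE 0.42), and the 3 arrays of the groups overlapped for both. All 4 defining endoderm markers (Hhex, Cer1, Foxa2 and Sox17) were well above background on all 6 arrays, in the Hhex-negative population as well.

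**Figure D1:**
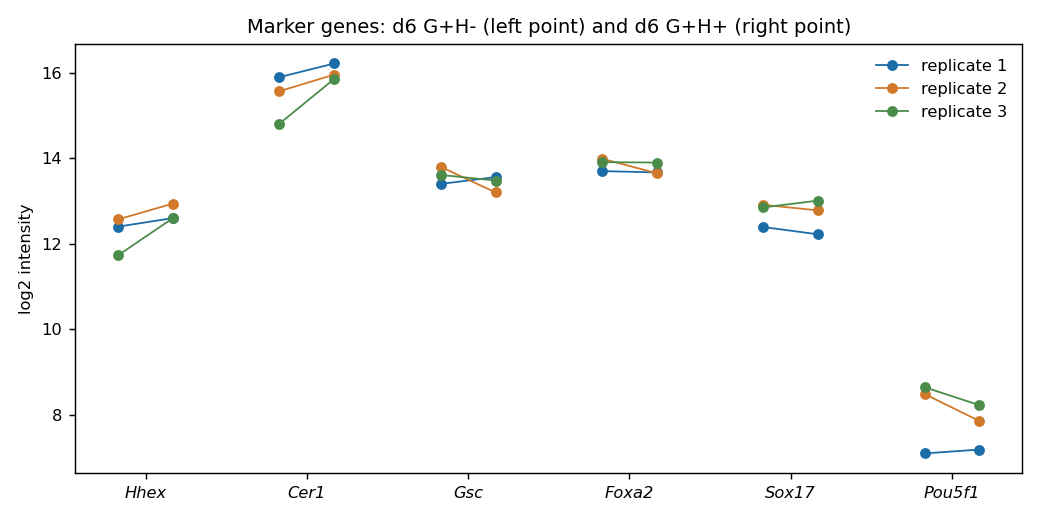
Log2 intensity of 6 marker genes on each of the 6 arrays, with d6 G+H- on the left and d6 G+H+ on the right of each gene and lines joining arrays of the same replicate number. Hhex and Cer1 go up along every line, by 0.48 and 0.59 in the mean, while Gsc, Sox17 and Pou5f1 have lines in both directions and Foxa2 goes down along all 3, by 0.13 in the mean.

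Over all genes the 2 populations were close. No gene was called at the thresholds of the study's methods, an adjusted p of at most 0.01 and a log2 difference of at least 1.5, out of 21308 tested (0 higher and 0 lower, 0% in each direction). Leaving out 1 array gave 3 genes called higher without replicate 1 of d6 G+H-, 3 called lower without its replicate 3, and 1 called higher without each d6 G+H+ replicate in turn. At an unadjusted limma p under 0.05, 797 genes were higher (3.74%) and 658 were lower (3.09%) in d6 G+H+ on at least 1 probe. The root mean square log2 difference over genes was 0.26. It was 0.36 for d5 Ghigh against d5 Glow, 0.52 for d4 G+ against d4 G-, 0.58 for ADE_EPZ against Control, and 1.1 for d6 G+H+ against ESCs.

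At an adjusted p of at most 0.05 with no limit on the difference, 2 genes passed (0.00939%). Slc36a2, a transporter of small amino acids, was at 4.87, 4.69 and 5.22 in d6 G+H- and at 6.23, 6.14 and 6.04 in d6 G+H+. It was not well above background on any Hhex-negative array and was above it on all 3 Hhex-positive arrays, which makes it at least 2.28-fold higher in d6 G+H+ (limma adjusted p = 0.0298). The other was Zfp976, a zinc finger gene, with a difference of 0.95 (SE 0.16, limma adjusted p = 0.0298) on one probe. Its brighter probe differed by 0.02 (SE 0.20), so the probes of this gene disagree.

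The precision of 3 arrays a side sets what could be seen. Of 14716 genes above background on at least 3 of the 6 arrays, the median SE was 0.194 and the 95% confidence interval of the difference reached a median of 0.395 on either side. For 12923 of these genes (87.8%) the interval lay within 1 of zero, and for 14254 (96.9%) within 1.5. At the median SE, the first gene of the ranking would need a difference of about 1.28 to pass an adjusted p of 0.01. Against ESCs, 246 genes were called higher in d6 G+H+ alone and 94 in d6 G+H- alone. Of these, 0 of either set had an adjusted p of at most 0.05 in the direct limma comparison.

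Arrays of the same replicate number deviated together. Over 13235 genes, the deviations from the group mean correlated at 0.64, 0.72 and 0.82 between d6 G+H- and d6 G+H+ replicates 1, 2 and 3, and between -0.60 and 0 for other combinations. These correlations are across genes, which are not independent. The Euclidean distance between arrays had a median of 52.6 for the 3 same-numbered pairs across the gate and of 69.35 for the 6 pairs within a population. Replicate 3 of both populations lay on slides other than those of replicates 1 and 2. No same-numbered d6 pair shared a slide. The arrays that did share one, replicate 1 of d6 G+H- and replicate 2 of d6 G+H+, had deviations that correlated at 0. The part of the slide in this pairing was not tested.

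Taking the pairs into account changed the count of calls in some fits. Neither of the first 2 replicate blocks tried called a gene, whether fitted to the 6 arrays or over all 42. A further block, by day and replicate number over all 42 arrays, was added after these results had been seen, and it called 7 genes higher (0.0329%) and 5 lower (0.0235%). At an adjusted p of at most 0.05 it passed 142 genes (0.666%), 78 higher (0.366%) and 64 lower (0.3%). Its median SE was 0.142 over the genes above background on at least 3 of the 6 arrays, against 0.194 unblocked. With the same block as a random effect, 3 genes were called higher and 2 lower. Of the calls with the block as a fixed effect, 11 were genes with a symbol (Cpm, Pyy, St8sia4, Ttr, Myh7, Isl1, Stard8, Pitx1, Vgf, Vim and Cxcl10). Without pair 1, 3 of these 11 stayed called (Vim, Pyy and Myh7), and without pair 2 or pair 3 none did. The differences of all 11 kept their sign without each pair, as for Stard8 at -2.87, -2.78 and -2.63 and Cpm at 2.18, 1.95 and 1.98 without pairs 1, 2 and 3. The genes called in this block are therefore given as shifts beside their unblocked values, not as established differences.

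Genes with the widest gap between the populations were selected by a rule on these same arrays: an unadjusted limma p under 0.05, no overlap of the 3 arrays against 3, signal above background in the higher group, and the largest difference. Their differences are thus a description. Groups without overlap were found for 1053 genes higher (4.94%) and 826 lower (3.88%) at any difference. At a difference of at least 1 they were found for 37 (0.174%) and 46 (0.216%). Complete separation of 3 arrays from 3 also arises without any difference, so these counts are a description too. The 15 genes selected as higher in d6 G+H+ had differences of 1.23 to 2.04 and limma adjusted p values of 0.0571 to 0.691. The 15 selected as lower had differences of -2.76 to -1.38 and limma adjusted p values of 0.0571 to 1.

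**Figure D2:**
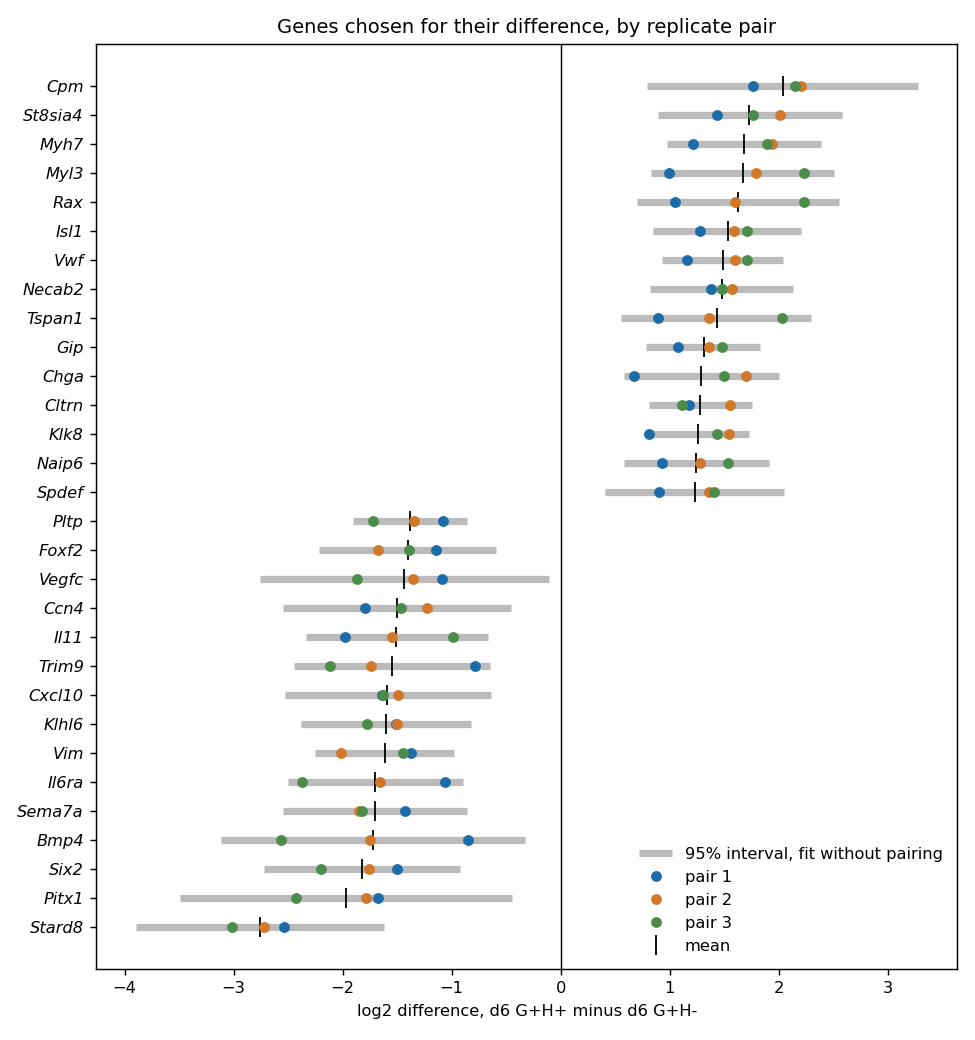
Log2 difference (d6 G+H+ minus d6 G+H-, x axis) of the 15 genes selected as higher and the 15 selected as lower, with a coloured point for each same-numbered pair, a black tick for the mean and a grey bar for the 95% confidence interval of the unblocked limma fit. All 3 pairs lie on the same side of zero for every gene, as the selection rule requires, and the means run from -2.76 for Stard8 to 2.04 for Cpm.

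On the slide that held both populations, the selected higher genes differed by 0.74 to 2.40 and the lower genes by -2.37 to -0.24, with the sign fixed by the rule of no overlap.

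The 15 higher genes have varied known roles. Cpm, a membrane carboxypeptidase, was at 9.46, 9.66 and 8.36 in d6 G+H- and at 11.22, 11.86 and 10.51 in d6 G+H+. Its difference was 2.04 (SE 0.61), with a limma adjusted p of 0.586 unblocked and 0.00213 in the added block. Gip, an incretin hormone of the upper gut, was at 8.08, 7.77 and 6.90 against 9.16, 9.13 and 8.38, with no overlap. Its difference of 1.31 (SE 0.26) had a limma adjusted p of 0.0842 unblocked and 0.00442 in the added block. Chga, a protein of hormone secretory granules, was bright in both populations and differed by 1.29 (SE 0.35). Spdef, an Ets factor of secretory epithelium, differed by 1.23 (SE 0.40), and Cltrn, which encodes the membrane protein collectrin, by 1.28 (SE 0.23). St8sia4, a polysialyltransferase, was at 6.17, 6.52 and 5.44 against 7.60, 8.53 and 7.20, a difference of 1.73 (SE 0.42) with limma adjusted p values of 0.302 unblocked and 0.00546 in the added block. Rax, a homeobox factor of the eye field and forebrain, differed by 1.63 (SE 0.45), and Vwf, a clotting protein of endothelium, by 1.49 (SE 0.27). The other members were Necab2, which encodes a calcium-binding protein (1.48), the tetraspanin gene Tspan1 (1.43), the serine protease gene Klk8 (1.26) and the inflammasome sensor gene Naip6 (1.24).

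Pyy and Ttr were called in the added block but overlapped between the populations, so they are not among the 15. Pyy, the gut hormone peptide YY, was at 9.61, 7.98 and 6.95 in d6 G+H- and at 11.19, 10.55 and 8.65 in d6 G+H+. The groups overlapped, with a wide spread between replicates of each gate, and every same-numbered pair was higher in d6 G+H+, by 1.58 to 2.56. The mean difference of 1.95 (SE 0.48) had a limma adjusted p of 0.307 unblocked and 0.0021 in the added block. Ttr, the carrier of thyroid hormone and retinol, was at 7.60, 7.94 and 6.42 against 9.17, 9.99 and 7.94. Its difference was 1.71 (SE 0.55), with limma adjusted p values of 0.651 and 0.00468.

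Myh7, Myl3 and Isl1, also among the 15, are known from heart muscle and its progenitors. Myh7, a slow and cardiac myosin heavy chain, was at 8.47, 8.77 and 7.13 in d6 G+H- and at 9.68, 10.71 and 9.02 in d6 G+H+, a difference of 1.68 (SE 0.35) with limma adjusted p values of 0.13 unblocked and 0.0021 in the added block. Myl3, a ventricular and slow myosin light chain, was at 11.16, 10.19 and 9.43 against 12.16, 11.97 and 11.66, a difference of 1.67 (SE 0.41). Isl1, a LIM homeobox factor of cardiac progenitors, pharyngeal endoderm and endocrine cells, was at 7.57, 7.34 and 6.75 against 8.84, 8.93 and 8.45. Its difference was 1.53 (SE 0.33), with limma adjusted p values of 0.168 unblocked and 0.00468 in the added block. The cardiac and lateral mesoderm list was split, with 6 of 14 members higher and 8 lower in the mean. At an unadjusted p under 0.05, Isl1 and Nkx2-5 were higher and Tbx5 (-0.83, SE 0.39) was lower, with Tbx5 above background on 1 of the 3 Hhex-positive arrays. Nkx2-5, a cardiac homeobox factor, was at 5.69, 6.02 and 5.41 against 6.82, 7.55 and 5.76.

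On the lower side, Vim, the intermediate filament protein vimentin of mesenchymal cells, was at 13.43, 14.18 and 12.67 in d6 G+H- and at 12.07, 12.15 and 11.22 in d6 G+H+. Every Hhex-positive array was below every Hhex-negative array. The difference of -1.61 (SE 0.31) had a limma adjusted p of 0.0782 unblocked and 0.0021 in the added block. Stard8 had the widest gap of all selected genes. It was at 9.26, 9.98 and 10.55 against 6.72, 7.26 and 7.53, a difference of -2.76 (SE 0.56) with limma adjusted p values of 0.102 and 0.00442.

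Six2, a homeobox factor among the 15 lower genes, was at 11.03, 12.13 and 11.40 in d6 G+H- and at 9.53, 10.37 and 9.20 in d6 G+H+, a difference of -1.82 (SE 0.44). Pitx1, another homeobox factor, differed by -1.97 (SE 0.75), and its limma adjusted p was 0.913 unblocked and 0.00802 in the added block. Bmp4, a ligand that patterns ventral and posterior mesoderm, was at 7.86, 9.37 and 10.12 against 7.01, 7.62 and 7.55. Its difference of -1.72 (SE 0.69) had a limma adjusted p of 0.949 unblocked and 0.18 in the added block. The chemokine Cxcl10 was at 7.30, 6.76 and 7.76 against 5.66, 5.27 and 6.14, and was above background on 2 of the 3 Hhex-positive arrays, so its difference of -1.59 (SE 0.46) may be understated. Its limma adjusted p was 0.544 unblocked and 0.0021 in the added block. Vgf, a precursor of secreted neuroendocrine peptides, overlapped between the populations and was called lower in the added block alone. It was at 10.47, 9.95 and 7.72 against 8.37, 8.12 and 6.02, a difference of -1.88 (SE 0.66) with limma adjusted p values of 0.765 and 0.0021.

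Promoter sequences are shown for Hhex, the sorted locus, and for Isl1 and Cxcl10, a higher and a lower gene with a GATA match, all chosen after their values were seen. They are RefSeq sequences of build GRCm38.p6, from the first listed start of each gene, and capitals mark the searched letters AGATAA. The Hhex sequence is chr19:37434591-37434890 (plus strand), the Isl1 sequence chr13:116309639-116309938 (minus strand) and the Cxcl10 sequence chr5:92348840-92349139 (minus strand).
Hhex: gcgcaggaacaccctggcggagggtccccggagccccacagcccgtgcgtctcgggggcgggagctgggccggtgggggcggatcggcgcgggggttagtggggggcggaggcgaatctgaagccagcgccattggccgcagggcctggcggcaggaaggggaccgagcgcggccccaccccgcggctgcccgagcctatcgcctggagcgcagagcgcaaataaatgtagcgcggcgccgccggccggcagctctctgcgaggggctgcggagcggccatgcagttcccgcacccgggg
Isl1: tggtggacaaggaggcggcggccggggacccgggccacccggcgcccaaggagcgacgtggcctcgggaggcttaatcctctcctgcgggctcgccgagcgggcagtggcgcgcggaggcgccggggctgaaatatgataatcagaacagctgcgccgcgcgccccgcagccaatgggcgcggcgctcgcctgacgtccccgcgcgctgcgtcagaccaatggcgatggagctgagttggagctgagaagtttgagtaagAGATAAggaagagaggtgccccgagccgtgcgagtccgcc
Cxcl10: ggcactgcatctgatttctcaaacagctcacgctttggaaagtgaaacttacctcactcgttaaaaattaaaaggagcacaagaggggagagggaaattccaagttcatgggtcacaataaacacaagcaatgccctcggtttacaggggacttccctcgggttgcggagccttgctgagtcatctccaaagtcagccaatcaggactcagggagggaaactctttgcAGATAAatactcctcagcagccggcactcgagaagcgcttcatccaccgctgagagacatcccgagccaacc

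A promoter of 300 bases was listed for 13 of the 15 higher and 13 of the 15 lower genes. The GATA letters AGATAA, on either strand, were in 4 of 13 higher and 4 of 13 lower promoters, against 11.4% of all 27025. The FOXA letters TGTTTNC were in 2 of 13 higher and 0 of 13 lower promoters, against 20.5% of all. The homeodomain letters TAATTA were in 3 of 13 and 0 of 13, against 5.31%. HNF4 letters CAAAGTCCA were in 0 of both, against 0.477%, and TATAAA was in 1 and 2 of 13, against 14.2%. These are letter matches in small sets and no binding was measured.

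The gene lists were summarised over all their measured members. The 30 lists hold 10 marker lists of the study and 20 assembled for this comparison, and no member of any list was called. Over all genes the median difference was 0.0064, and 3.36% of genes were higher and 2.56% lower at an unadjusted limma p under 0.05 on the brightest probe. The study's lists may have been informed by these populations, so their direction is not independent evidence.

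The definitive and visceral endoderm, gut hormone and epithelial lists had medians above that of all genes, while the study's shorter endoderm list of 12 genes did not. Of its members 6 were higher and 6 lower in the mean, with a median of 0 and none at an unadjusted p under 0.05. Of the 34 definitive endoderm genes, 26 had a higher mean in d6 G+H+ and the median difference was 0.31. At an unadjusted p under 0.05, 6 members were higher (Pyy, Cpm, Apoa1, Clic6, Pax9 and Fxyd3) and Dlx3 was lower. Its defining markers named above had differences of 0.48 (Hhex), 0.59 (Cer1), -0.13 (Foxa2) and -0.05 (Sox17). Of 13 visceral endoderm genes, 10 had a higher mean, with a median of 0.49. At an unadjusted p under 0.05, 4 were higher, among them Ttr and Foxa3, a forkhead factor of liver and gut (0.73, SE 0.31). Foxa3 differed by 0.48, 0.85 and 0.87 in the same-numbered pairs, and by -0.11 on the slide that held both populations. Of 11 gut peptide hormone genes, 10 had a higher mean, with a median of 0.50, and 3 (Pyy, Gip and Ghrl) were higher at an unadjusted p under 0.05.

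All 14 genes of epithelial adhesion and keratins had a higher mean in d6 G+H+, with a median of 0.37. Grhl2, a factor of epithelial junction genes, was the one at an unadjusted p under 0.05, at 8.53, 8.94 and 8.05 against 9.28, 10.07 and 9.45. Cdh1, which encodes E-cadherin, differed by 0.50 and Epcam by 0.44, while the keratin gene Krt8 differed by 0.04. The mean level of the list ran from 11.59 to 12.10 in d6 G+H- and from 12.21 to 12.28 in d6 G+H+.

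Mesenchymal and mesoderm lists had medians below that of all genes. Of 11 mesenchymal genes and regulators of epithelial-mesenchymal transition, 9 had a lower mean, with a median of -0.43 and medians of -0.45, -0.49 and -0.36 in pairs 1, 2 and 3. At an unadjusted p under 0.05, 4 were lower: Vim, Pdgfra (-1.42, SE 0.45), the repressor Zeb1 (-1.17, SE 0.43) and Cdh2, which encodes N-cadherin (-0.64, SE 0.21). Of 21 mesoderm genes, 15 had a lower mean, with a median of -0.23. The widest difference of the list was that of Isl1, which was higher (1.53) and the only member at an adjusted p of at most 0.05 in the added block. At an unadjusted p under 0.05, Mixl1, Cdh11 and Meox1 were lower. Mixl1, a homeobox factor of the streak, was at 7.70, 8.79 and 8.12 against 6.66, 7.19 and 6.97. Meox1 was above background on 2 of the 3 Hhex-negative and 0 of the 3 Hhex-positive arrays, and Cdh11 on 2 of the 3 Hhex-positive arrays. Among 9 Wnt target genes, 8 had a lower mean, including Sp5 (-1.48, SE 0.59). Sp5 differed by -1.44, -1.68 and -1.33 in the same-numbered pairs, and by 0.10 on the slide that held both populations. Axin2 was above background on 2 of the 3 Hhex-negative arrays and 1 of the 3 Hhex-positive arrays, and its 2 probes differed by -0.98 (SE 0.39) and -0.26 (SE 0.26).

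Among markers of other cells the gate could hold, 11 trophoblast genes had a median of -0.38, with 8 lower and 3 higher in the mean. Tfap2c (-1.25, SE 0.37) and Etv2 were lower at an unadjusted p under 0.05, while Gata3 had a higher mean (1.01, SE 0.54). The median was -0.28 for 14 cardiac and lateral mesoderm genes, -0.12 for 7 neurectoderm genes and -0.09 for 19 haemato-vascular genes. It was 0.02 for 23 pluripotency genes, whose summary level ran from 7.69 to 8.01 in d6 G+H- and from 7.73 to 7.91 in d6 G+H+. Zfp42, a zinc finger gene of pluripotent cells, was the one member at an unadjusted p under 0.05 (1.03, SE 0.34). Their part in the differences above was not tested. The median was 0.01 for 23 cell cycle genes, although the G1 cyclin gene Ccnd1 differed by -1.10 (SE 0.31). Its limma adjusted p was 0.494 unblocked and 0.00929 in the added block. Ccnd1 differed by -1.18, -0.79 and -1.33 in the same-numbered pairs. On the slide that held both populations, whose arrays have different replicate numbers, it differed by 0.51.

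**Figure D3:**
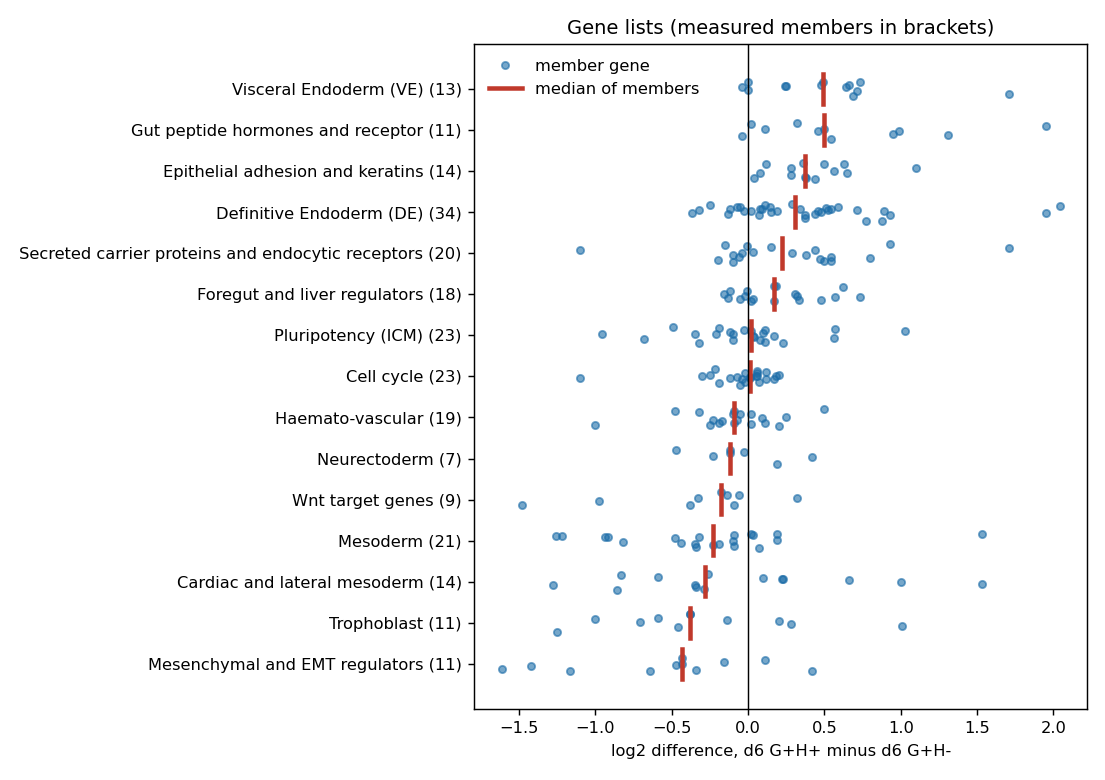
Log2 difference (d6 G+H+ minus d6 G+H-, x axis) of each measured member of 15 of the 30 gene lists, with a red line at the median of each list and the number of members in brackets. Medians run from 0.50 and 0.49 for gut peptide hormone and visceral endoderm genes to -0.43 for mesenchymal genes, and the members of every list spread widely around them.

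The selected genes were then set beside comparisons that share no array with this one. In ADE_EPZ against Control, all 15 higher genes had a positive difference, with a median of 1.93, and 11 of the 15 were called higher, where 1.99% of all genes were. Myl3 differed there by 3.63, Rax by 3.02, Chga by 2.99 and Myh7 by 2.62. Of the 15 lower genes, 12 had a negative difference, with a median of -1.32, and 3 were called lower, where 0.817% of all genes were. Bmp4 (-3.81) and Stard8 (-3.40) were among those called, while Pitx1 differed by 1.16. Hhex itself differed by 2.27 (limma adjusted p = 0.000182).

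Across 14683 genes the differences of the gate and of EPZ6438 correlated at r = 0.54, which is a description across genes that are not independent. The same measure for d5 Ghigh against d5 Glow was 0.05. There, 10 of the 15 higher genes were positive and 11 of the 15 lower genes negative, with 0 called in either set, where 0.239% of all genes were called higher and 0.0329% lower. The labels of the EPZ6438 arrays name no sort, so a different share of Hhex-positive cells and a different level per cell cannot be told apart in that comparison. By flow cytometry, the study reported a larger G+H+ fraction at d6 with EPZ6438 than in its control.

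**Figure D4:**
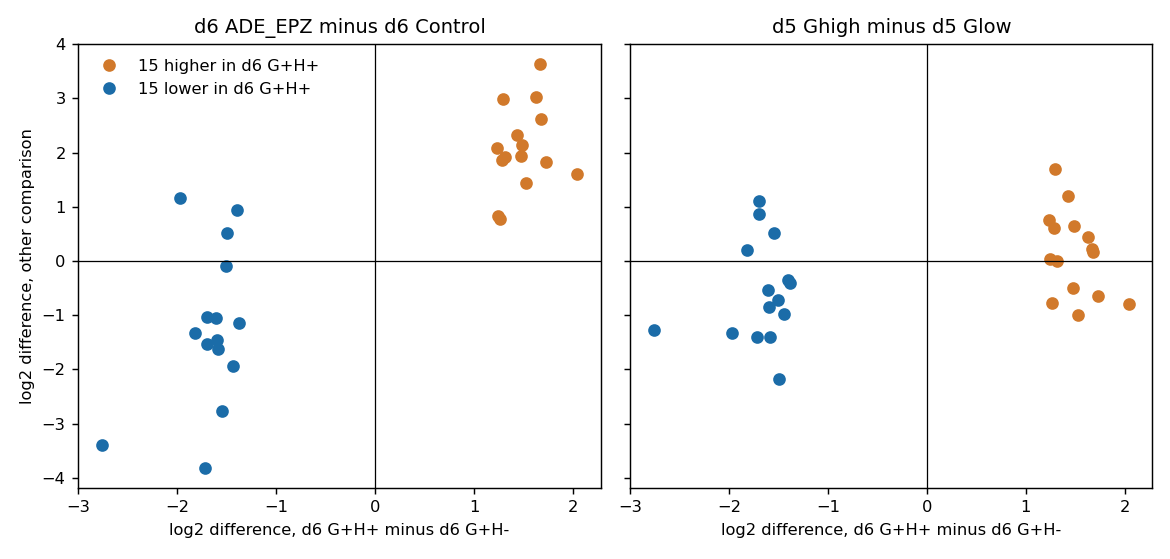
Log2 differences of the 15 genes selected as higher (orange) and the 15 selected as lower (blue) in d6 G+H+ against d6 G+H- (x axis) and in a comparison with other arrays (y axis), ADE_EPZ minus Control on the left and d5 Ghigh minus d5 Glow on the right. On the left all 15 orange points lie above zero and 12 of 15 blue points below it, while on the right both sets spread over zero.

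Along the differentiation, d6 G+H+ lay further than d6 G+H- from the d5 Ghigh population for several of these genes, and nearer to it for others. Il11, one of the selected lower genes, was at 6.85 (d5 Ghigh), 8.83 (d6 G+H-) and 7.33 (d6 G+H+). In the same order Ccn4, another of them, was at 6.13, 7.31 and 5.81, and Vgf at 7.46, 9.38 and 7.5. The following genes lay further. Pyy was between 5.53 and 5.92 in every group from ESCs to d5, at 8.18 ± 1.34 (SD, n = 3) in d6 G+H- and at 10.13 ± 1.32 in d6 G+H+. Gip was at 5.34 ± 0.21 (d5 Ghigh), 7.58 ± 0.61 (d6 G+H-) and 8.89 ± 0.44 (d6 G+H+). On the lower side, Six2 was at 13.22 ± 0.82 (d5 Ghigh), 11.52 ± 0.56 (d6 G+H-) and 9.70 ± 0.60 (d6 G+H+). Stard8 was at 11.25 ± 0.33, 9.93 ± 0.65 and 7.17 ± 0.41 in the same order, and Vim at 14.53 ± 0.29, 13.43 ± 0.75 and 11.81 ± 0.52. Against earlier groups the order was not the same. Six2 was at 5.78 in ESCs and 9.38 in d3 G-, Stard8 at 6.64 in d2 and 7.23 in d3 G-, and Vim at 11.61 in d2 and 12.45 in ESCs, all nearer to d6 G+H+ than to d6 G+H-. Several of the higher genes were also high in earlier groups. Cpm was higher in d3 G+ (10.23 ± 0.66) than in d6 G+H-. St8sia4 in d4 G- (8.31) and Klk8 in ESCs (10.55) were above their own means in d6 G+H+ (7.78 and 8.90).

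**Figure D5:**
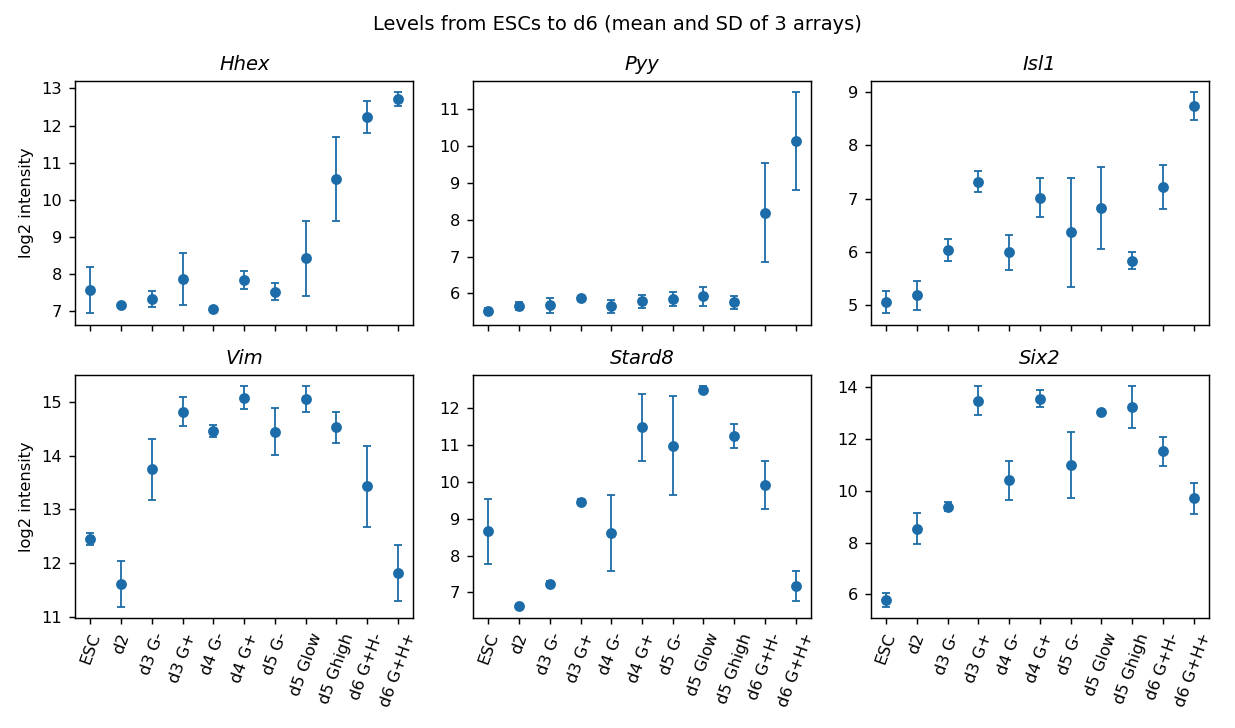
Log2 intensity (mean and SD of 3 arrays) of 6 genes in the 11 untreated groups from ESCs to d6. Pyy stays near 5.53 to 5.92 until d5 and is highest in d6 G+H+, Hhex is high in both d6 populations, and Vim, Stard8 and Six2 are lower in d6 G+H+ than in d6 G+H- and d5 Ghigh.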

How the data were processed

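Total RNA of ESCs and of cells from the differentiation was measured on one-colour Agilent SurePrint mouse arrays (Cy3), 42 in all for 14 groups of 3. The authors deposited scanner files with the foreground and background intensity of each spot, and a table of log2 intensity, made by normexp correction (offset 10) and quantile normalisation. Groups and replicate numbers came from the sample labels. From the scanner files, spots marked as outliers were left out, spots of a probe were averaged, and the median foreground was corrected by normexp (offset 10). After log2 transformation, quantile normalisation covered the 55681 probes of every array together. The recomputed values correlated with the deposited log2 intensity at 0.999978 or more on every array.

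A gene is a RefSeq accession in the scanner annotation, named from a table of RefSeq genes (GRCm38.p6, names only) that held 21850 of 22201 accessions, 21308 genes in all. Where several probes stand for a gene, the one with the largest mean over all arrays is given. Probes without an accession (27615) stayed in the adjustment and are not named. The model, in limma 3.58.1 (R 4.3.3, with statmod 1.5.0 for block correlations), held a mean for each group and used all 42 arrays, with Benjamini-Hochberg adjustment over all probes. Single-gene p values are limma p values, since permutation of 3 arrays against 3 cannot pass 0.05. A lower bound on a fold is the mean of the brighter group over the dimmer group's mean of the lowest signal above background on each array, or of the probe's own signal where higher.

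Genes named are Hhex, Gsc, Cer1 and Pou5f1, then called genes filled to 15 per direction by the rule stated beside the results, and list members at an unadjusted p under 0.05 or among the 3 largest differences of their list. Genes outside this rule are further examples chosen after their values were seen, as were the genes called only in the added block. The comparison, the lists and the promoter motifs were chosen with earlier results of these data known. Same-numbered d6 arrays were treated as pairs in the replicate blocks and the pair differences, while the reported fit held no block. The pairs were used because the deviations of all 3 correlated above 0.1, which was decided before the calls of the fits were compared. The fits were checked on simulated data. Alternatives were other background corrections and normalisations, the deposited table, a filter on dim probes, smaller fits, slide and replicate blocks, array weights, 1 probe per gene and leaving out each d6 array. The precision is limited by the number of arrays, and each SE rests on a spread pooled over all 14 groups.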

Additional observations from a re-analysis of the deposited data

How the results depend on the processing

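No gene was called in either direction under any of 14 other settings that kept all 6 arrays, the added blocks aside. Leaving out 1 array at a time gave 0 to 3 called higher and 0 to 3 called lower, 0 to 16 genes passing an adjusted p of 0.05, and 41 to 160 higher and 59 to 104 lower genes without overlap, where 2 arrays against 3 overlap less often by construction. The count at an adjusted p of at most 0.05 was 2 in the reported fit. It was 12 with an offset of 50 and with 1 probe per gene, 8 without background correction and with dim probes removed, and 9 with slide as a random block and with array weights. It was 1 in the fit to the 33 untreated arrays, and 0 with the 75th percentile scaling, with quantile normalisation of the 6 arrays alone and in the fit to those 6 arrays. Genes without overlap at a difference of at least 1 numbered 22 higher and 20 lower with an offset of 50, 26 lower without background correction, and 163 higher and 122 lower with the 75th percentile scaling. The cause was not tested.

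With the replicate number as a block, the first 2 fits called 0 genes and passed 0 (6 arrays) or 20 (42 arrays) at an adjusted p of at most 0.05. The replicate block by day, chosen after seeing the data, called 7 higher and 5 lower as a fixed block, where 142 genes passed an adjusted p of 0.05, and 3 higher and 2 lower as a random block, where 87 passed. These 2 fits were the only ones with all arrays that called any gene.

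On the slide that held both populations, Cer1 differed by 0.06 and Pou5f1 by 0.75, with 1 array a side and no test. Of 119 named genes, 23 had the other sign there, among them Ccnd1 (0.51), Sp5 (0.10), Foxa3 (-0.11), Zfp42 (-0.18), Mesp1 (0.25) and Lefty2 (-1.01), whose differences over all arrays were -1.10, -1.48, 0.73, 1.03, -1.28 and 0.45. The arrays of that slide have different replicate numbers, so replicate and gate differ together there. Each gene in this list kept the sign of its mean in every same-numbered pair, as for Ccnd1 (-1.18, -0.79 and -1.33). Pou5f1 had same-numbered pairs in both directions (0.09, -0.63 and -0.41). Of the same 119 genes, 7 changed direction when 1 array was left out. Their ranges were -0.22 to 0.18 for Sox17, -1.11 to 0.38 for Fosb, -0.09 to 1.09 for Tubb3, -0.20 to 0.68 for Cdkn2b, -0.05 to 1.51 for Cdkn1c, -0.79 to 0.02 for Col5a1 and -0.75 to 0.03 for Junb. No gene was reversed by another normalisation, filter or block.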

Other observations

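Of 27615 probes without a RefSeq accession, 0 were called in the unblocked limma fit, 896 (3.24%) had an unadjusted p under 0.05, against 5.92% of genes on their brightest probe, and 1 was called in the added replicate block by day.

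The PRC2, Nodal and Notch lists had medians near that of all genes, with members on both sides. The 11 PRC2 subunit genes had a median difference of -0.04, the 14 genes of Nodal signalling -0.04 and the 15 Notch pathway genes -0.01. At an unadjusted p under 0.05, 1 PRC2 gene (Mtf2, 0.28) and no member of the other 2 lists passed. Within the BMP list of 12 genes, whose median was 0.27, the ligand gene Bmp7 differed by 1.08 (SE 0.32, limma adjusted p = 0.554 unblocked and 0.023 in the added block) and Bmp4 by -1.72 (SE 0.69), so ligands of 1 family lay on opposite sides. Among 12 secreted antagonist genes, 10 had a higher mean and the activin-binding Fst had the widest difference, at -1.41 (SE 0.35, limma adjusted p = 0.326 unblocked and 0.00894 in the added block).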
